A study of Mus musculus with 2 samples.

Results

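Replacement histone variants are the histones that cells make outside as well as inside S phase, and 9 of their genes were described together with Slbp, the gene of the stem-loop binding protein. The 10 genes were taken by symbol from a deposited table of 23276 genes: H2afz, H2afv, H2afx, H2afy and H2afy2 (H2A variants), H3f3a and H3f3b (H3.3), H1f0 and H1fx (linker histones) and Slbp. All 10 had a row, and all 10 reached a mean of at least 1 FPKM, as did 11349 genes in all. FPKM is the number of fragments scaled to transcript length and to mapped fragments.

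The KO group was heart ventricle of mouse embryos at stage E12.5 (mid-gestation) in which both alleles of the long non-coding RNA gene Fendrr had been removed by homologous recombination, and the WT group was ventricle of wild-type embryos of the same stage. Both groups shared the C57BL/6 x 129SV background and came from tetraploid complementation: injected embryonic stem cells form the body of such an embryo, and the tetraploid host forms mainly its extraembryonic tissue. Ventricles were pooled by 4 per genotype, and total RNA depleted of ribosomal RNA gave 1 strand-specific library each, so that transcripts with and without a poly(A) tail were both measured. No difference below has a replicate check or a test, and higher and lower compare 1 KO library with 1 WT library. The KO run went through the standard pipeline, while the WT run, planned for paired reads, was aborted and had its bases called by hand. Genotype, run and base calling therefore cannot be told apart.

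Histones made for DNA replication come from clustered genes whose mRNAs lack introns and a poly(A) tail. They end in a conserved stem-loop instead, and the stem-loop binding protein that Slbp encodes attaches there and acts in the 3′ end cut, in translation and in decay. Replacement variants come mostly from single genes with polyadenylated mRNAs. Their proteins enter chromatin without replication: H3.3 at transcribed genes and telomeres, H2A.Z around promoters, macroH2A over repressed chromatin. H2A.X is the form that is phosphorylated beside DNA breaks.

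The stem-loop is a feature of replication-dependent histone mRNAs, so more matches in those genes follow from the choice of motif. Sites are shown to set that of H2afx beside theirs. The stem-loop was searched on the transcript strand as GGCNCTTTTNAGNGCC in mouse transcripts of GENCODE vM21 (build GRCm38). Of 68 replication-dependent histone genes, 41 held it (60.3%), as did 1 of the 10 genes described here and 5 of 55263 other genes (0.00905%). A gene without a match holds no such letters in its annotated transcripts, and nothing more follows from that. H2afx was the gene with a match. Its site is given with the site of the most abundant matching replication-dependent gene of each histone class, with the motif of 16 bases in capitals and 6 flanking bases on each side.
H2afx (chr9:44335234-44335261, + strand): cacaaaGGCCCTTTTAAGGGCCaccacc
Hist1h1c (chr13:23739506-23739533, + strand): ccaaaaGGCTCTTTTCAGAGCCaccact
Hist2h2aa1 (chr3:96246026-96246053, + strand): taaaaaGGCTCTTTTCAGAGCCacccac
Hist1h2bb (chr13:23747197-23747224, + strand): cccaaaGGCTCTTTTAAGAGCCacccac
Hist1h3c (chr13:23745041-23745068, - strand): aaaaaaGGCTCTTTTAAGAGCCacctaa
Hist1h4d (chr13:23581944-23581971, + strand): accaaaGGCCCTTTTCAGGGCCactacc

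The H2afx site lies in the 3′ UTR of a single-exon gene, 46 bases after the stop codon. The annotated transcript of 1384 bases runs on for another 822 bases. Such a run-on was not particular to H2afx: annotated transcripts of Hist1h1c and Hist1h4d went on for 840 and 770 bases past the motif. Those of Hist2h2aa1, Hist1h2bb and Hist1h3c went on for 35, 23 and 74 bases. In human cells the H2A.X gene is known to give both a short mRNA that ends at the stem-loop and a longer polyadenylated mRNA. The deposited table has 1 value for the gene, so the forms cannot be told apart. H2afx and the linker histone genes H1f0 and H1fx have 1 exon each. The other genes have 4 to 9 exons in the longest annotated coding transcript: 4 in H3f3a, 5 in H2afz and in H2afv, 6 in H3f3b, 8 in Slbp and 9 in H2afy and in H2afy2.

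Paralogues of the set encode the same or nearly the same protein from different bases, which bears on how reads were assigned. H3f3a and H3f3b encode an identical H3.3 protein, yet their coding sequences of 408 bases (stop codon left out) differed at 95 positions and were 76.7% identical. The longest run of bases they shared was 23. The first 100 coding bases of each, the length of 1 read, are shown with the bases that differ in capitals.
H3f3a (chr1:180811827-180811926, - strand): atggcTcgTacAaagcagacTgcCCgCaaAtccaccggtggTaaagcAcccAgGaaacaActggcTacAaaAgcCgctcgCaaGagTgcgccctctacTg
H3f3b (chr11:116023910-116024009, - strand): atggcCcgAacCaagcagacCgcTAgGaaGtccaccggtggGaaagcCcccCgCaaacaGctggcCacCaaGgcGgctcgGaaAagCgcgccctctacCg
The H2A.Z pair is set out the same way. H2afz and H2afv had 384 coding bases each, differed at 80 of them (79.2% identical) and shared no run longer than 14 bases. Their stretches join coding exons, and the coordinates give the whole span.
H2afz (chr3:137864694-137865538, + strand): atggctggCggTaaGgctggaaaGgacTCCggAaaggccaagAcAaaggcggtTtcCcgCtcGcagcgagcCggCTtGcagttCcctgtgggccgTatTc
H2afv (chr11:6433819-6444339, - strand): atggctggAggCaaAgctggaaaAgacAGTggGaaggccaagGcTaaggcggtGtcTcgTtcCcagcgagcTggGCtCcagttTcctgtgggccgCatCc

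No stretch of 100 coding bases was common to the members of either pair. Sequence shared with other copies was more extensive. Of 2219 distinct 100-base stretches in annotated H2afz transcripts, 288 also occurred in transcripts of another gene, all of them in Gm8203. The share was 5.64% for H3f3a (chiefly H3f3c), 1.92% for H3f3b (chiefly Gm6485) and 1.40% for H2afx, which shared them with 16 genes, 13 of them replication-dependent H2A genes with a row of their own. H2afv, H2afy, H2afy2, H1f0, H1fx and Slbp shared none. How the authors' counting treated reads that fit several places is not given in the sources used here, so the levels of H2afz and H3f3a, which share the most sequence, are uncertain.

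Depth was read from the lowest values. For 68.9% of 2213 genes with a mean under 0.3 FPKM, KO over WT came within 0.1% of a ratio of whole numbers (at most 10) multiplied by 0.796, which puts the KO library at 1.26 times the WT depth. In long genes with a single annotated transcript, 1 read was worth 0.0608 FPKM times kilobases in KO and 0.0764 in WT. This corresponds to about 16400000 reads in KO and 13100000 in WT, if values were scaled to all mapped reads and the annotated lengths are close to those the authors used. Read numbers below are rough estimates at the shortest annotated coding transcript, which gives the fewest reads and the widest intervals. The 95% intervals (exact binomial on those reads) cover counting error only, with no allowance for animals, library preparation or duplicates from PCR.

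By level, H3f3a stood first and H1fx last. In the KO library the order was H3f3a (1161 FPKM), H2afz (195 FPKM), H3f3b (163 FPKM), H1f0 (70.5 FPKM), Slbp (42.5 FPKM), H2afy (27.5 FPKM), H2afv (23.8 FPKM), H2afx (22.0 FPKM), H2afy2 (13.8 FPKM) and H1fx (1.55 FPKM). The order in the WT library was the same except that H2afx, at 29.2 FPKM, stood above H2afv, at 28.9 FPKM. H2afy, H2afv and H2afx were close together in both libraries. FPKM is already scaled to length, which allows this comparison between genes, but a level also depends on which transcript models the authors used.

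**Figure D1:**
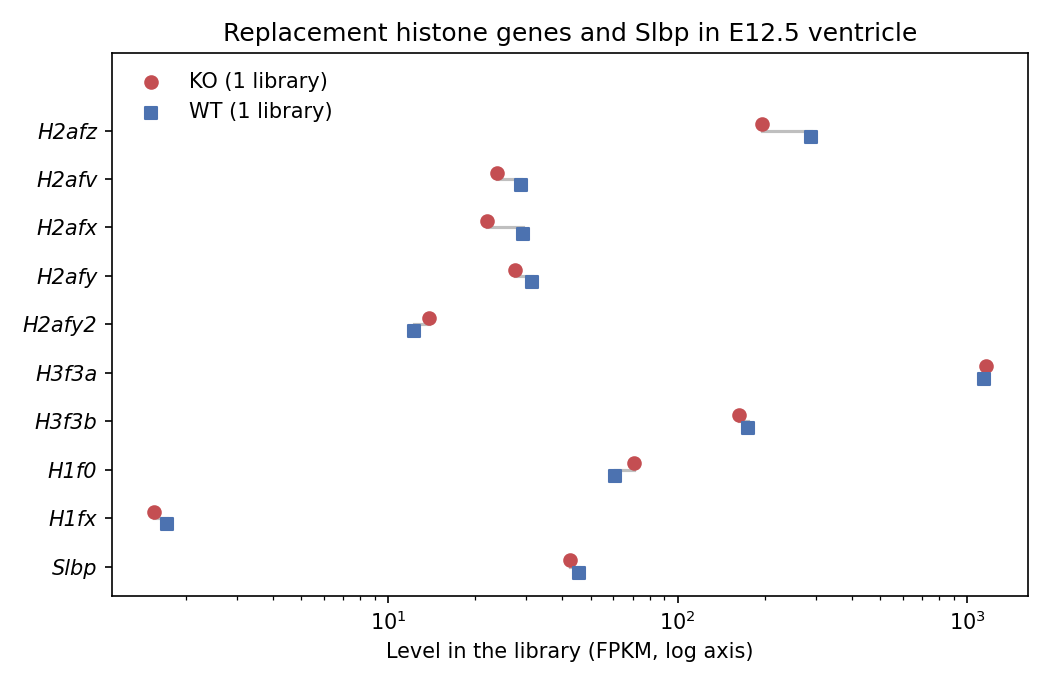
Level of each gene in FPKM (log axis) in the KO library (circles) and the WT library (squares), 1 library each; grey lines join the values of a gene. H3f3a is highest at 1161 FPKM in KO and 1143 FPKM in WT, and the widest gap among the abundant genes is that of H2afz, at 195 FPKM in KO and 288 FPKM in WT.

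Across the set, 7 of 10 genes were lower and 3 higher in the KO library as deposited, where 67.0% of all expressed genes were lower; bringing the median of all genes to 0 turned H3f3b, H1fx and Slbp to slightly higher. Differences are given as log2((KO + 1)/(WT + 1)) of the FPKM values, and the added 1 makes differences of weakly expressed genes come out too small. The median log2 ratio of the 10 genes was -0.10, beside -0.11 for all 11349 expressed genes. Against the median of all expressed genes, 4 of the 10 lay below and 6 above, and 3 of those 6 (H3f3b, Slbp and H1fx) were within 0.011 of it. None was at least 1.5-fold higher, a limit that 1.54% of expressed genes passed, and none was at least 1.5-fold lower, which 3.60% were. With the median of all genes brought to 0, the genes past that limit numbered 303 higher and 192 lower, in place of 175 higher and 408 lower, and still held none of the 10. At 2-fold the shares of all genes were 0.467% higher and 0.388% lower, again with none of the 10. All 10 lay within the central 95% of expressed genes, from -0.64 to 0.49.

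The 4 lowest ratios belonged to H2A variants, and the fifth H2A variant, H2afy2, had the highest ratio but for H1f0. H2afz, the main H2A.Z gene, was at 195 FPKM in KO and 288 FPKM in WT, a log2 ratio of -0.56. Its KO level was 0.678 times its WT level, with a counting interval of 0.630 to 0.728 at roughly 1403 KO and 1648 WT reads. The ratio of H2afz was thus just inside the 1.5-fold limit. Of all expressed genes 4.20% had a lower log2 ratio, as did 6.82% of the 337 genes whose mean was within 2-fold of its own.

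H2afv, which encodes the other H2A.Z protein, was at 23.8 FPKM in KO and 28.9 FPKM in WT (log2 ratio -0.27). Its counting interval for KO over WT, 0.674 to 1.01, held 1, and it overlapped that of H2afz. Both readings rest on the shortest coding transcripts, of 519 bases for H2afv and 437 bases for H2afz. At the longest, of 1633 and 1069 bases, reads would be more and intervals narrower, so either reading could change. The pair summed to 219 FPKM in KO and 317 FPKM in WT, and H2afz made up 89.1% of that sum in KO and 90.9% in WT. H2afz thus dominated the H2A.Z sum in both libraries.

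H2afx, the source of the H2A.X protein, was at 22.0 FPKM in KO and 29.2 FPKM in WT, a log2 ratio of -0.39. The counting interval of KO over WT was 0.667 to 0.855 at roughly 501 KO and 528 WT reads. The median gene stood at 0.915 without a pseudocount, above that interval. H2afx was also the gene with a stem-loop in its 3′ UTR. The 41 expressed replication-dependent genes with the same motif had a median log2 ratio of -0.60, and 37 of them were below the median of all genes. Of the 23 expressed replication-dependent genes without a match, 21 were below it, with a median of -0.53. Among the genes whose sites are shown above, Hist2h2aa1 was at 272 FPKM in KO and 424 FPKM in WT, Hist1h4d at 312 FPKM in KO and 462 FPKM in WT, and Hist1h3c at 43.7 FPKM in KO and 83.1 FPKM in WT. Hist1h1c (124 FPKM in KO and 144 FPKM in WT) and Hist1h2bb (460 FPKM in KO and 530 FPKM in WT) were closer between the libraries. All 5 were lower in KO, as were H2afx and 67.0% of all expressed genes. Hist2h2bb, the replication-dependent gene of highest mean, went the other way, at 1162 FPKM in KO and 933 FPKM in WT. Replication-dependent H2B genes summed to 2308 FPKM in KO and 2561 FPKM in WT. Sequence shared between these genes and other copies was not measured, so their single values are uncertain.

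The macroH2A genes, whose products carry a large macro domain, differed from WT in opposite directions. H2afy (macroH2A1) was at 27.5 FPKM in KO and 31.3 FPKM in WT (log2 ratio -0.18), and H2afy2 (macroH2A2) was at 13.8 FPKM in KO and 12.3 FPKM in WT (log2 ratio 0.16). Their counting intervals did not overlap: KO over WT was 0.795 to 0.966 for H2afy and 0.977 to 1.29 for H2afy2. The interval of H2afy2 held 1, and that of H2afy held the median gene, at 0.915. With the median of all genes brought to 0, the log2 ratios were -0.075 for H2afy and 0.27 for H2afy2. H2afy was at 1.98 times the level of H2afy2 in KO and 2.54 times in WT, and the sum of both was 41.3 FPKM in KO and 43.7 FPKM in WT.

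The H3.3 genes were nearly equal between the libraries as deposited. H3f3a was at 1161 FPKM in KO and 1143 FPKM in WT, a log2 ratio of 0.02. H3f3b was at 163 FPKM in KO and 176 FPKM in WT, a log2 ratio of -0.10. With the median of all genes brought to 0, the log2 ratios were 0.13 for H3f3a and 0.0065 for H3f3b. Their sum was 1325 FPKM in KO and 1318 FPKM in WT, of which H3f3a gave 87.7% in KO and 86.7% in WT. The counting intervals of KO over WT, 0.981 to 1.05 for H3f3a and 0.894 to 0.968 for H3f3b, were narrow because both genes are abundant. Those intervals did not overlap.

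H1f0, the linker histone that accumulates in differentiating and resting cells, gave the highest ratio of the set. It was at 70.5 FPKM in KO and 60.8 FPKM in WT, a log2 ratio of 0.21, and 88.8% of expressed genes had a lower one. KO over WT was 1.16, with a counting interval of 1.09 to 1.24. H1fx, the other replacement linker histone gene, was at 1.55 FPKM in KO and 1.73 FPKM in WT (log2 ratio -0.10). It rested on roughly 31 KO and 28 WT reads, and its interval of 0.511 to 1.52 means that a difference of this size was not detectable at this depth.

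Slbp was at 42.5 FPKM in KO and 45.7 FPKM in WT, a log2 ratio of -0.10 beside the -0.11 of all genes. Its counting interval for KO over WT was 0.795 to 1.09. The ratio of Slbp mRNA between the libraries thus lay at the middle of all genes, while its level ranked 1238 among the 11349 expressed genes. Protein was not measured.

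**Figure D2:**
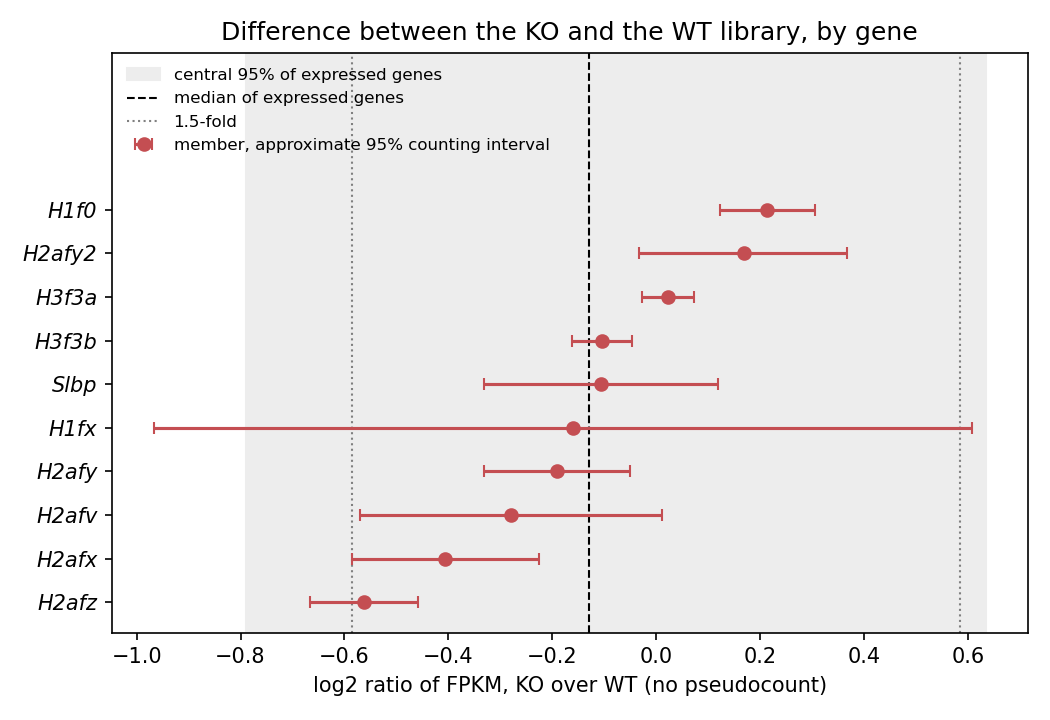
Log2 ratio of FPKM (KO over WT, no pseudocount) for each gene, with approximate 95% counting intervals as bars; the dashed line and grey band give the median and the central 95% of expressed genes on the same scale, and dotted lines mark 1.5-fold. H2afz and H2afx have intervals wholly below the median gene and H1f0, H2afy2 and H3f3a wholly above it, while the bar of H1fx is the widest.

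Set beside their replication-dependent counterparts, the replacement genes made up different shares of the histone transcripts in each class. Totals hold these genes only and leave out the other variant genes given further below, such as Cenpa (H3) and H2afj (H2A). For H3, the replication-dependent genes (12 rows) summed to 292 FPKM in KO and 444 FPKM in WT. H3f3a and H3f3b thus made up 81.9% of this H3 total in KO and 74.8% in WT. For H1, the 5 replication-dependent genes summed to 545 FPKM in KO and 798 FPKM in WT, and H1f0 with H1fx made up 11.7% in KO and 7.26% in WT. Both shares were higher in KO.

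For H2A, both sums were lower in KO. The 18 replication-dependent rows summed to 1780 FPKM in KO and 2523 FPKM in WT, and the 5 variant genes summed to 282 FPKM in KO and 390 FPKM in WT. The variant share was 13.7% in KO and 13.4% in WT. Many replication-dependent genes have near-identical copies, so that sums are used here in place of single genes. How reads that fit several copies were counted is not given, so the sums and the shares built on them are uncertain too.

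**Figure D3:**
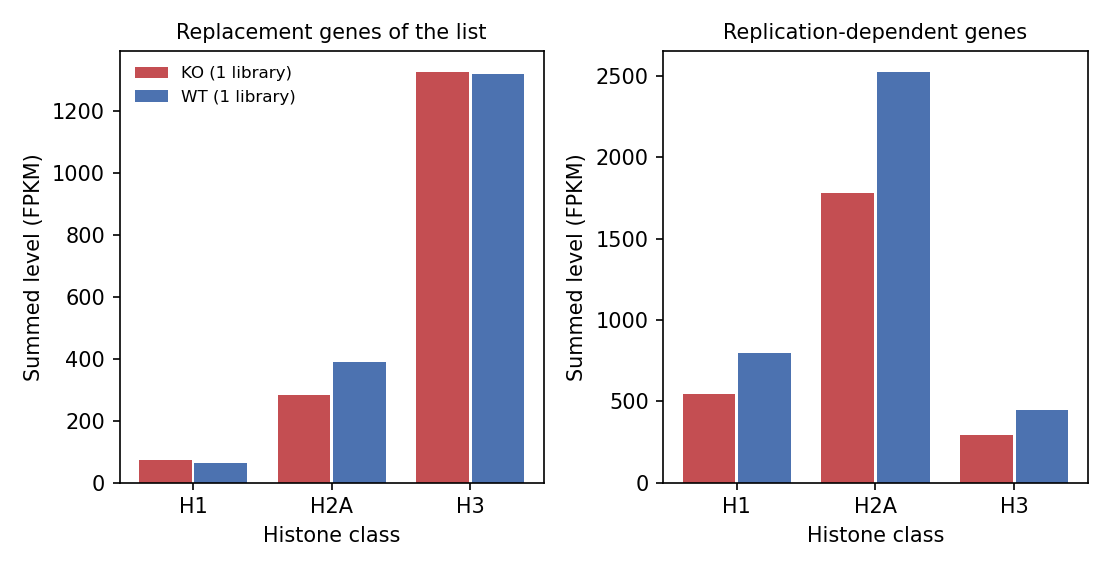
Summed FPKM of the replacement genes (left) and of the replication-dependent genes (right) of classes H1, H2A and H3 in the KO library (red, left bar) and the WT library (blue, right bar), on separate vertical axes that start at 0. The H3.3 bars are level at 1325 FPKM in KO and 1318 FPKM in WT, while every replication-dependent bar is lower in KO.

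Other variant genes were few. Cenpa, the H3 variant of the centromere, was at 21.8 FPKM in KO and 31.3 FPKM in WT (log2 ratio -0.50). H2afj, a further H2A variant gene, was at 4.06 FPKM in KO and 4.98 FPKM in WT (log2 ratio -0.24). Hist1h1t, a linker histone gene of the testis, was at 0.667 FPKM in KO and 1.01 FPKM in WT. The germ-line genes H2afb1, H1foo and H1fnt were listed at 0 in both libraries, and Hils1, a spermatid linker histone gene, was at 0.0764 FPKM in KO and listed at 0 in WT.

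Genes that place variants in chromatin lay around the middle of all genes as a list. Of 32 measured chaperone and exchange genes 15 were below the median of all genes and 17 above it, the median log2 ratio was -0.10, and none passed 1.5-fold in either direction. Among the depositors of H3.3, Hira was at 2.70 FPKM in KO and 3.56 FPKM in WT, Daxx at 7.95 FPKM in KO and 7.73 FPKM in WT, and Atrx at 28.7 FPKM in KO and 27.0 FPKM in WT. Asf1a, a chaperone that hands H3 to other depositors, was furthest from the median, at 15.6 FPKM in KO and 21.8 FPKM in WT (log2 ratio -0.46).

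Chaperones of the replication-coupled path included Rbbp4, at 28.0 FPKM in KO and 38.4 FPKM in WT (log2 ratio -0.45). For H2A.Z, the exchange complex subunit Vps72 was at 30.1 FPKM in KO and 27.9 FPKM in WT. Anp32e, which removes H2A.Z, was at 43.6 FPKM in KO and 37.6 FPKM in WT (log2 ratio 0.21). Ruvbl2, an ATPase of the same complexes, was at 30.6 FPKM in KO and 40.1 FPKM in WT (log2 ratio -0.38). The abundant general chaperones Npm1 (865 FPKM in KO and 930 FPKM in WT) and Set (209 FPKM in both) had log2 ratios of -0.10 and 0.0011.

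Partners of Slbp in the histone mRNA pathway were lower as a list. Of 21 genes with a row 19 were expressed, and 14 of these were below the median of all genes. Their median log2 ratio was -0.36, and 2 were at least 1.5-fold lower, beside 3.60% of all expressed genes. Those were Ccnf, the F-box protein known to target SLBP for degradation in G2, at 8.22 FPKM in KO and 13.4 FPKM in WT, and Lsm1, of the decay complex, at 1.91 FPKM in KO and 3.98 FPKM in WT. With the median of all genes brought to 0, Lsm1 stayed past the limit at a log2 ratio of -0.67 and Ccnf, at -0.53, did not. Zfp473 and Ctif did not reach a mean of 1 FPKM and were at 0.240 and 0.651 FPKM in KO and at 0.602 and 1.17 FPKM in WT. Not every group of the list was lower: of 3 cap-binding genes 1 was below the median of all genes and 2 above it. The median log2 ratio of the cap-binding genes lay 0.11 above that of all genes. Cdk1 was at 29.4 FPKM in KO and 43.4 FPKM in WT, and Ccna2 at 64.8 FPKM in KO and 81.9 FPKM in WT. These last genes are also genes of the dividing cell.

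Of the 3′ end machinery that acts beside Slbp, both expressed genes of the U7 particle and 3 of 4 cleavage genes were below the median of all genes. Lsm10, of the U7 particle, was at 6.34 FPKM in KO and 9.05 FPKM in WT. Cpsf3, the nuclease that cuts the transcript, was at 23.5 FPKM in KO and 25.6 FPKM in WT. Sympk, the scaffold of the cleavage complex, was at 11.7 FPKM in KO and 15.9 FPKM in WT, and its partner Cpsf2 at 18.9 FPKM in KO and 24.7 FPKM in WT. Npat and Casp8ap2, of the histone locus body, were at 6.15 and 14.5 FPKM in KO and at 6.56 and 15.0 FPKM in WT, both slightly above the median of all genes in log2 ratio.

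Genes of H2A.X signalling lay near the middle of all genes as a list. Of 14 expressed genes 8 were below that middle and 6 above it, with a median log2 ratio of -0.12 and none past 1.5-fold. Baz1b, a kinase of H2A.X, was at 27.8 FPKM in KO and 26.9 FPKM in WT, and Mdc1, which binds the phosphorylated form, at 9.29 FPKM in KO and 8.57 FPKM in WT. Nbn (19.0 FPKM in KO and 27.0 FPKM in WT) and Rnf8 (16.5 FPKM in KO and 21.9 FPKM in WT), which act at breaks, were furthest below.

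**Figure D4:**
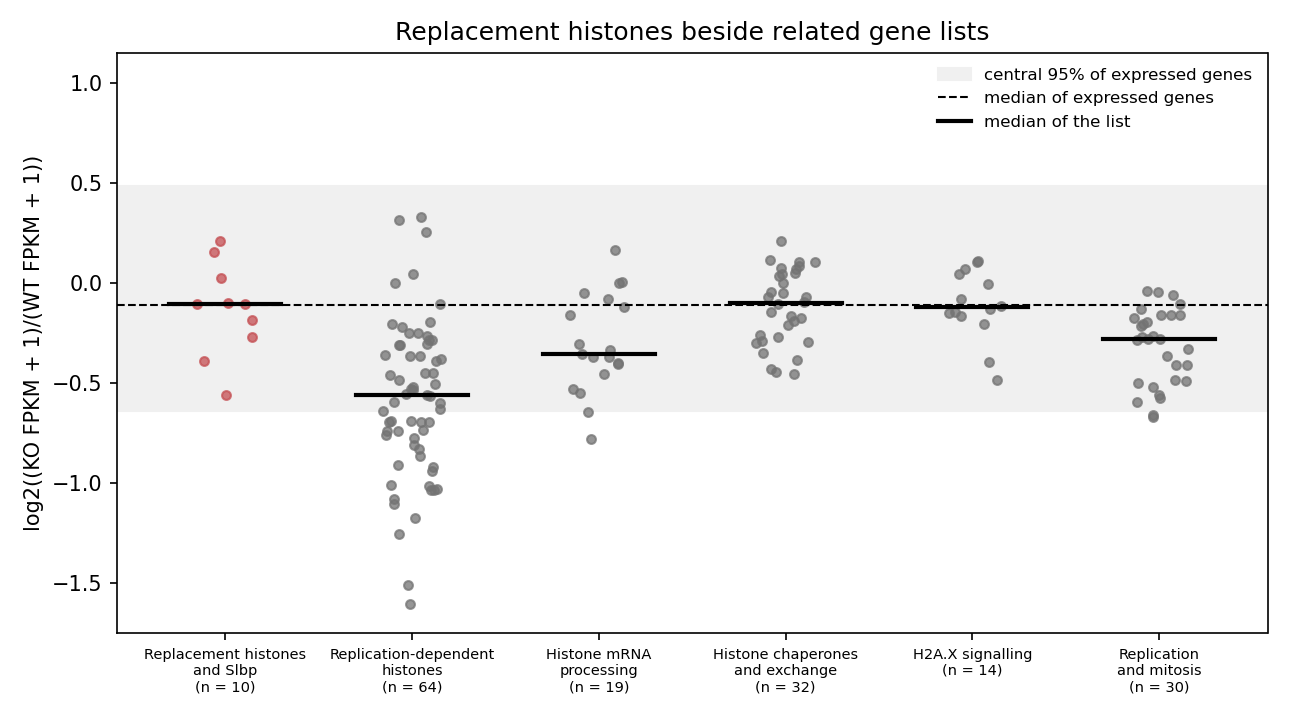
Log2((KO + 1)/(WT + 1)) of each expressed gene (points) for the 10 genes (red) and 5 related lists (grey), with list medians as black bars and the median and central 95% of expressed genes as a dashed line and band. The bar of the 10 genes, at -0.10, lies at the line, that of 64 replication-dependent histone genes at -0.56 and that of 30 replication and mitosis genes at -0.28.

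Genes of the dividing cell were mostly on the lower side, as were H2afz and H2afx. Of 30 replication and mitosis genes 26 fell short of the median of all genes, their own median log2 ratio was -0.28, and 3 (Cdt1, Plk1 and Prim1) were at least 1.5-fold lower, as were 3.60% of all expressed genes. With the median of all genes brought to 0 none of the 3 passed that limit, at log2 ratios of -0.56 for Cdt1, -0.55 for Plk1 and -0.48 for Prim1. Log2 ratios in this list ran from -0.67 to -0.042. Pcna, which clamps the polymerase to DNA, was at 120 FPKM in KO and 177 FPKM in WT (log2 ratio -0.56). Top2a was at 137 FPKM in KO and 159 FPKM in WT (log2 ratio -0.22), and Mki67 at 43.3 FPKM in KO and 45.1 FPKM in WT. Fewer dividing cells and less RNA per cell cannot be told apart in pooled tissue.

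Myl2, the ventricular light chain, was abundant in both libraries, at 9478 FPKM in KO and 9103 FPKM in WT. Summed markers were 22016 FPKM in KO and 20863 FPKM in WT for 8 cardiomyocyte genes, 178 FPKM in KO and 179 FPKM in WT for 6 endothelial genes, and 484 FPKM in KO and 384 FPKM in WT for 5 cushion and fibroblast genes. The sums were 64.0 FPKM in KO and 51.7 FPKM in WT for 4 epicardial genes, 77.3 FPKM in KO and 54.4 FPKM in WT for 7 macrophage genes, and 5482 FPKM in KO and 5004 FPKM in WT for 9 erythroid genes. Cushion, epicardial and macrophage sums were thus higher in KO. Most of the macrophage sum was Lyz2, at 58.9 FPKM in KO and 41.9 FPKM in WT. C1qc (2.13 FPKM in KO and 2.32 FPKM in WT) and Cd68 (1.03 FPKM in KO and 1.44 FPKM in WT) were lower in KO, and the other macrophage genes higher. For 7 liver and yolk sac genes the sums were 23.3 FPKM in KO and 0.832 FPKM in WT, with Alb listed at 0 in both. Most of that KO sum was Afp, at 16.6 FPKM in KO and 0.110 FPKM in WT. The part of these cell types in the values of H2afz, H2afx and H1f0 was not tested. No row carried the name Fendrr, and both libraries had 0 FPKM for 1110050K14Rik, an earlier symbol of the gene, which leaves the genotype without a check.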

How the data were processed

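Ventricle RNA of 1 KO and 1 WT library was compared. The authors deposited 1 table with an FPKM value per gene symbol and library, per the file headers. The submitters' processing notes name Cufflinks 2.0.2, TopHat2 2.0.6 and Bowtie2 2.0.2 and the build mm9. The annotation and options are not given in the sources used here.

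Log2((KO + 1)/(WT + 1)) was computed for all genes, and lists were described over genes that averaged 1 FPKM or more. With 1 library per genotype no test was made. The genes and lists were chosen with earlier results of these data known. From each list the 2 genes of highest mean and the 2 furthest from the median of all genes (mean of at least 5 FPKM) were to be named; others, such as Hira, Daxx, Atrx, Vps72, Anp32e, Ruvbl2, Lsm1, Lsm10, Cpsf2, Cpsf3, Sympk, Zfp473, Ctif, Npat, Casp8ap2, Mdc1, Mki67, Prim1, Hist1h1t and Hils1, were named for their roles after their values were seen, and not every gene so chosen is printed. C1qc and Cd68 were named because they went against the macrophage sum. Sequences, lengths and exons came from GENCODE vM21 on GRCm38, whereas the values were made on mm9. Protein sequences are not used here. Alternatives were 2 pseudocounts, 5 scalings, 2 filters, a 2-fold limit and summed paralogues. The procedure was tested on simulated data. Python 3.11.15, numpy 2.4.6, pandas 2.3.3, scipy 1.17.1 and matplotlib 3.10.9 were used.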

Additional observations from a re-analysis of the deposited data

How the results depend on the processing

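No paired analysis was possible because there is only 1 library of each genotype, which also means that none could be left out. Under the 10 settings H2afz and H2afx kept the lowest and H1f0 and H2afy2 the highest log2 ratios of the set, and no gene passed 1.5-fold or 2-fold. The filters and median centring leave that order unchanged by construction, and scaling by a single factor per library can hardly alter it. Only the pseudocounts and quantile normalization put the order to a check. Over the pseudocounts and scalings the log2 ratio ran from -0.56 to -0.40 for H2afz, -0.40 to -0.25 for H2afx, -0.28 to -0.13 for H2afv, -0.19 to -0.043 for H2afy, 0.12 to 0.28 for H2afy2, 0.023 to 0.22 for H3f3a and 0.20 to 0.36 for H1f0, while H3f3b (-0.10 to 0.084), Slbp (-0.10 to 0.031) and H1fx (-0.15 to 0.010) took both signs. Scaling moves the median of all genes from -0.11 to about 0, and the median of the 10 genes to 0.0065 with median centring, 0.0029 with the upper quartile, 0.00011 with the trimmed mean, 0.0086 with equal totals and -0.019 with quantile normalization. Without a filter, 7 of the 10 were lower than the median gene, against 4, since the median gene was then at -0.051. Genes at least 1.5-fold higher and lower, 175 and 408 as reported, numbered 327 and 696 with a pseudocount of 0.1, 60 and 111 with 5, 303 and 192 with median centring, 292 and 193 with the upper quartile, 291 and 196 with the trimmed mean, 265 and 218 with quantile normalization, 300 and 185 with equal totals, 82 and 266 at a minimum mean of 5 FPKM, and 53 and 44 at 2-fold. The median of other variant genes relative to all genes was -0.37 at that minimum, where Cenpa alone remained, against -0.26. Summing paralogues gave log2 ratios of 0.0071 for H3.3, -0.53 for H2A.Z and -0.078 for macroH2A. Depth limits H1fx most.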
